A study of Mus musculus with 15 samples.

Results

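Smooth muscle cells and the myoepithelial cells of the mammary gland contract with a shared set of proteins, and 10 genes of that set were examined in mouse mammary tissue by their names in the deposited tables. They were Acta2, Actg2, Myh11, Mylk, Tagln, Cnn1, Tpm2, Lmod1, Des and Oxtr, all 10 were found among 52526 named genes, and 9 of them had at least 1 CPM, the count of reads scaled to the depth of the library, in at least 7 mice. The mice were female athymic nude mice (Crl:NU-Foxn1 nu), which lack mature T cells. From 8 weeks of age they carried subcutaneous osmotic pumps for 16 weeks that delivered either the polybrominated diphenyl ether BDE-47, a flame retardant, at 0.03 mg/kg/d (7 mice) or only its vehicle, PEG300 with 1% DMSO (8 mice). RNA was taken from whole tissue of the left 4th mammary gland, 1 library per mouse, and the comparison asked whether long exposure to a low dose altered the transcript level of each gene. The study describes xenografts carried by some mice, and which mice carried one is not in the labels and was not used here.

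Contraction in both cell types begins with calcium, which activates the myosin light chain kinase Mylk, so that the smooth muscle myosin Myh11 can pull on filaments of the actins Acta2 and Actg2. Tagln, Cnn1, Tpm2 and Lmod1 bind or organize those actin filaments, and Des forms the intermediate filaments that tie the contractile array together. In the lactating gland, oxytocin from the pituitary binds its receptor Oxtr on myoepithelial cells, which squeeze the alveoli and eject milk, whereas smooth muscle of the blood vessels uses the same filament proteins to set vessel width. Many of these genes are driven by serum response factor, Srf, which binds DNA at the CArG box.

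The libraries held 10.06 to 19.58 M mapped reads, with a median of 15.19 M in vehicle mice and 14.38 M in BDE-47 mice. Levels are log2(CPM), and the authors listed every gene under 1 CPM at 0, so a 0 stands for fewer than 10.06 to 19.58 reads depending on the mouse. The reads come from the 3′ end of transcripts, 1 fragment per molecule, so levels of different genes need no division by length. A total of 3 libraries stood apart by their marker genes. In vehicle replicates 6 and 8 all 8 B cell markers were above the floor, with a summed level of 9.30 and 9.53 on the log2 scale against 0 to 4.41 in the 13 other mice, and luminal epithelial markers summed to 5.16 and 6.92. BDE-47 replicate 6 held skeletal muscle markers at 16.96 against 5.87 to 8.11 in all other mice, and its luminal sum of 7.24 was also under the 9.06 to 11.50 of the 12 remaining mice. Results that rest on these libraries are given for all 15 mice and for the 12 others (6 per group), a subset chosen after seeing the data.

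None of the 10 genes differed between BDE-47 and vehicle beyond the spread between mice. With 15 mice, limma called 0 of 9511 genes at an adjusted p under 0.05 (lowest adjusted p = 0.982), and 443 genes (4.66%) had an unadjusted p under 0.05, of which 0 were among the 9 contractile genes tested. The means of 5 of the 9 were more than 2-fold apart, with Oxtr, Lmod1 and Tpm2 higher and Myh11 and Tagln lower in BDE-47 mice, where the share of all tested genes past 2-fold was 26.3% (13.0% higher and 13.2% lower). Of any size, 5 of the 9 were higher and 4 lower, beside 49.1% and 50.9% of all genes. For 0 of the 9 were the groups without overlap, as they were for 0.0105% of all genes tested (1 gene). The median difference of the 9 genes was 0.08 on the log2 scale, against -0.02 for all genes tested. Within the 12 mice, 2 genes (0.0210%) had a limma adjusted p under 0.05 and 0 of the 9 were among them, only Myh11 of the 9 was past 2-fold, beside 29.0% of all genes, and for 0 of the 9 were the groups without overlap, beside 0.0736%. The median of the 9 was then -0.33. The size and, for Des and Tpm2, the direction of single differences depended on which mice were counted. In bulk tissue fewer cells of a type and less RNA per cell cannot be told apart.

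**Figure D1:**
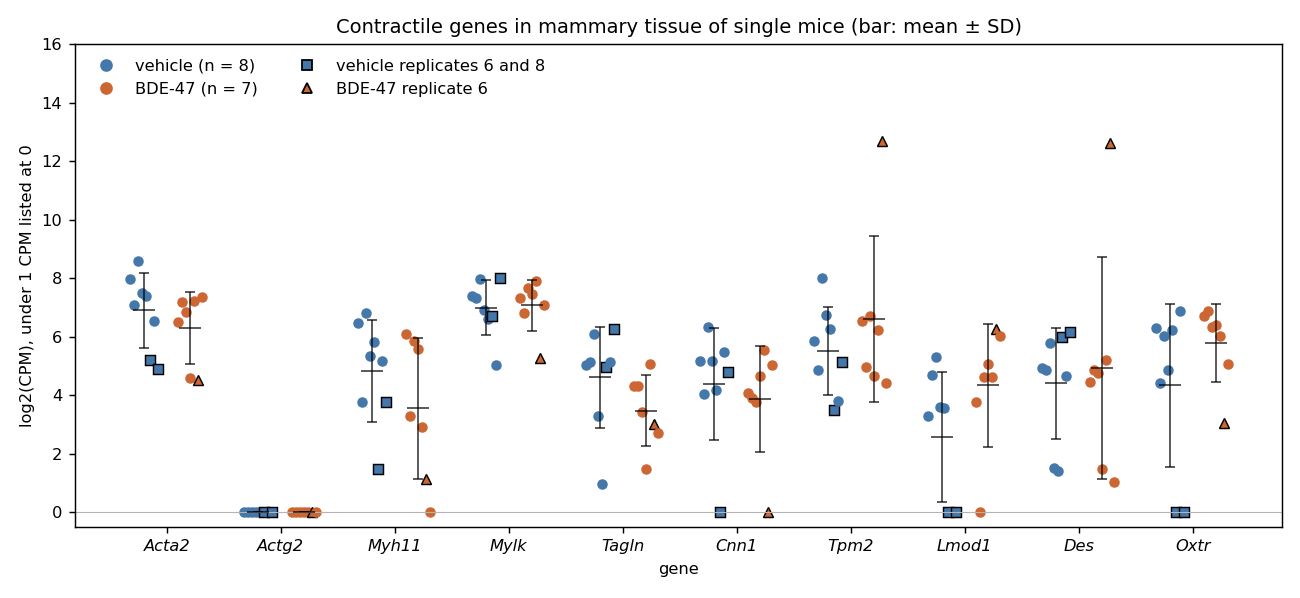
Level of each of the 10 contractile genes, in log2(CPM) on the y axis, in each vehicle mouse (blue, n = 8) and BDE-47 mouse (orange, n = 7), with the group mean ± SD in black. The squares are vehicle replicates 6 and 8 and the triangle is BDE-47 replicate 6, which holds the 2 points above 12 (Des and Tpm2), and the groups overlap for every gene.

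The actin Acta2, the usual marker of smooth muscle and myoepithelium, had the highest mean of the 10 genes, 7.51, in the 6 vehicle mice other than replicates 6 and 8. Mylk had a higher mean than Acta2 in all 8 vehicle mice (6.99 against 6.89) and in the 7 BDE-47 mice (7.07 against 6.31). In the 8 vehicle mice the level of Acta2 was 4.88 at the lowest, 7.24 at the median and 8.57 at the highest. In the 7 BDE-47 mice Acta2 was at 4.50, 6.83 and 7.34. The groups overlapped, and the vehicle mice split: replicates 6 and 8 held 37.1 and 29.4 CPM, and the 6 others held 92.8 to 379 CPM. The mean was 6.89 ± 1.29 (SD, n = 8) in vehicle and 6.31 ± 1.24 (SD, n = 7) in BDE-47 mice, a log2 difference of -0.59 ± 0.54 (SE, limma adjusted p = 0.982). Without the 3 libraries that stood apart, all 6 BDE-47 mice lay under the vehicle median of 7.45, and the difference was -0.90 (95% interval -1.73 to -0.07). Of the 9 genes only Acta2 had an unadjusted limma p under 0.05 in the 12 mice, where 4.68% of all genes had one. It did not pass adjustment over all genes (limma adjusted p = 0.968, unadjusted p = 0.0347) or the exact permutation test (two-sided, p = 0.0952). With only the 2 vehicle mice left out (13 mice), Acta2 and Myh11 had an unadjusted limma p under 0.05, at 0.0121 and 0.0209, beside 4.51% of all genes, and limma's adjusted p was 0.990 for both. Adipocyte markers were also lower in the BDE-47 mice of the 12: their log2 summed CPM was 13.43 to 14.97 in vehicle and 13.21 to 14.00 in BDE-47 mice. The difference was -0.73 (exact permutation p = 0.0281, two-sided, not adjusted over the 9 marker lists compared) against 0.25 over all 15 mice. All 8 adipocyte markers had lower BDE-47 means in the 12 mice, 4 with an unadjusted limma p under 0.05 and 0 past adjustment. Their part in the Acta2 and Myh11 differences was not tested.

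Within the BDE-47 group, Acta2 was lowest in replicate 6 at 22.6 CPM and next lowest in replicate 4 at 24.1 CPM. The other 5 mice held 90.7 to 162 CPM. Actg2, the actin of visceral smooth muscle, was listed at 0 in all 15 mice. Of the 2 smooth muscle actins, only Acta2 was thus detected at this depth.

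Myh11, the myosin heavy chain that marks differentiated smooth muscle, varied widely between mice of the same group. It ran from 1.47 through a median of 5.25 to 6.79 in vehicle mice and from 0 through 3.27 to 6.09 in BDE-47 mice. BDE-47 mice fell on both sides, with replicates 1, 3 and 4 at 5.56 to 6.09 and replicates 2, 5, 6 and 7 at 0 to 3.27. The groups overlapped, and the difference was -1.28 ± 0.91 (SE, limma adjusted p = 0.982). Over the 12 mice it was -1.61 (95% interval -3.23 to 0.01, limma adjusted p = 0.968, exact permutation p = 0.154, two-sided), a mean 3.06-fold higher in vehicle mice. Pearson's r of Myh11 with the adipocyte sum was 0.62 in the 12 mice (permutation p = 0.0262, adjusted p = 0.589 over 45 relations), with Spearman's rho 0.72 (permutation p = 0.0106) and r 0.59 without the 2 mice farthest from the median. The adipocyte list was not planned for such relations. Replicate 7 of the BDE-47 group, at 0 for Myh11, had 162 CPM of Acta2, the highest of its group, whereas BDE-47 replicate 6, at 1.14 for Myh11, and vehicle replicate 6, at 1.47, were low in both genes.

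Mylk, the kinase that starts the cycle, had a mean near that of Acta2, 6.99 in vehicle mice, and the smallest SD of the 9 genes in each group (0.95 and 0.87). It ran from 5.04 through 7.11 to 8.00 in vehicle mice and from 5.27 through 7.32 to 7.89 in BDE-47 mice. Nearly the same range was covered in both groups, and the difference was 0.08 ± 0.45 (SE, limma adjusted p = 0.997), with a 95% interval of -0.83 to 0.99 that leaves room for a change near 2-fold either way. Over the 12 mice the difference was 0.50. The 3′ end of Mylk also encodes telokin, a short protein of smooth muscle made from its own promoter, and reads from the 3′ end cannot part both transcripts.

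Tagln, the actin-binding protein SM22, was lower in BDE-47 mice by the median and not beyond the spread. Its level in vehicle mice was 0.95 at the lowest, 5.08 at the median and 6.26 at the highest, and in BDE-47 mice 1.48, 3.43 and 5.06. All 7 BDE-47 mice lay under the vehicle median, yet vehicle replicate 5, at 1.93 CPM, was the lowest of all 15. The difference was -1.13 ± 0.84 (SE, limma adjusted p = 0.982, exact permutation p = 0.170, two-sided). Without vehicle replicate 5 it was -1.66 (exact permutation p = 0.0169, two-sided), and in the 12 mice, which include that replicate, it was -0.72 (exact permutation p = 0.437, two-sided). In the vehicle mice with B cell markers, Tagln was at 31.2 CPM in replicate 6, under the vehicle median, and at 76.4 CPM in replicate 8, the highest of all 15 mice.

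Cnn1, calponin, which binds actin and slows the myosin cycle, was at 0 in vehicle replicate 6 and BDE-47 replicate 6 and between 3.77 and 6.33 in the 13 other mice. The medians were 4.96 in vehicle and 4.08 in BDE-47 mice, the groups overlapped, and the difference was -0.54 ± 0.89 (SE, limma adjusted p = 0.994). It was -0.56 in the 12 mice, with 5 of 6 BDE-47 mice under the vehicle median of 5.16, and 0.11 when only BDE-47 replicate 6 was left out.

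Lmod1, leiomodin, which starts new actin filaments in smooth muscle, had the largest difference of the 10 genes, 1.78 ± 1.06 (SE, limma adjusted p = 0.982), higher in BDE-47 mice. Vehicle mice ran from 0 through 3.43 to 5.30 and BDE-47 mice from 0 through 4.63 to 6.25. The gene was listed at 0 in vehicle replicates 6, 7 and 8 and in BDE-47 replicate 2, and 6 of 7 BDE-47 mice lay above the vehicle median. In the 12 mice the difference was 0.60 (95% interval -1.52 to 2.73), and without BDE-47 replicate 2 alone it was 2.5 (exact permutation p = 0.0283, two-sided). Mice at 0 on either side thus set the size of this difference.

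Tpm2, a tropomyosin, and Des, desmin, are made by skeletal as well as smooth muscle, and both were highest in BDE-47 replicate 6. That mouse held 6667 CPM of Tpm2 against 11.2 to 254 CPM in the 14 others, and 6293 CPM of Des against 2.05 to 71.4 CPM. In the same library the skeletal actin Acta1 stood at 34090.4 CPM against 19.4 to 71.5 CPM elsewhere, while Acta2 was at its lowest of all mice and Cnn1 and Actg2 were at 0. Lmod1, at 76.1 CPM, was also highest in that mouse, above the 64.8 CPM of BDE-47 replicate 7. The high values of Tpm2 and Des thus came with skeletal muscle genes and without a matching level of the smooth muscle genes Acta2, Myh11 and Cnn1.

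The Tpm2 difference of 1.09 ± 0.78 (SE, limma adjusted p = 0.982) was 0.07 without BDE-47 replicate 6 and -0.33 in the 12 mice (95% interval -1.50 to 0.85). Outside that mouse Tpm2 ran from 4.42 to 6.71 in BDE-47 mice and from 3.49 through 5.49 to 7.99 in vehicle mice, so the groups overlapped. The Des difference was 0.51 ± 1.05 (SE, limma adjusted p = 0.994), and it was -0.78 without BDE-47 replicate 6 and -0.22 in the 12 mice (95% interval -2.31 to 1.86). Des was at 1.40 and 1.52 in vehicle replicates 5 and 4 and at 1.04 and 1.48 in BDE-47 replicates 7 and 4, and at 4.44 or more in the 11 other mice. Each group thus had 2 mice of low Des, and leaving out BDE-47 replicate 6 at 12.62, its other mice were at 4.44 to 5.20 and those of the vehicle group at 4.64 to 6.16.

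The receptor Oxtr differed by 1.45 ± 0.86 (SE, limma adjusted p = 0.982), higher in BDE-47 mice, and it was 0.0013 without the 2 vehicle mice with B cell markers. Oxtr was listed at 0 in vehicle replicates 6 and 8 and stood at 4.42 to 6.86 in the 6 other vehicle mice. In BDE-47 mice it was 3.06 at the lowest, in replicate 6, 6.32 at the median and 6.89 at the highest. The means of those 13 mice were 5.78 ± 0.93 (SD, n = 6) and 5.78 ± 1.34 (SD, n = 7), and in the 12 mice the difference was 0.46 (95% interval -0.55 to 1.46, exact permutation p = 0.312, two-sided). The 3 mice with the lowest Oxtr were the 3 with the lowest luminal epithelial sum, and their sum of myoepithelial and basal keratin markers, 3.57 to 5.33, was also under the 6.72 to 8.30 of the 12 others. Their adipocyte sum, 8.90 to 11.95, was likewise under the 13.21 to 14.97 of the 12 others. Within the 12 mice Pearson's r of Oxtr was 0.10 with the luminal sum, 0.04 with the myoepithelial and basal keratin sum and 0.03 with the adipocyte sum. The part of tissue composition in the Oxtr difference was not tested.

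**Figure D2:**
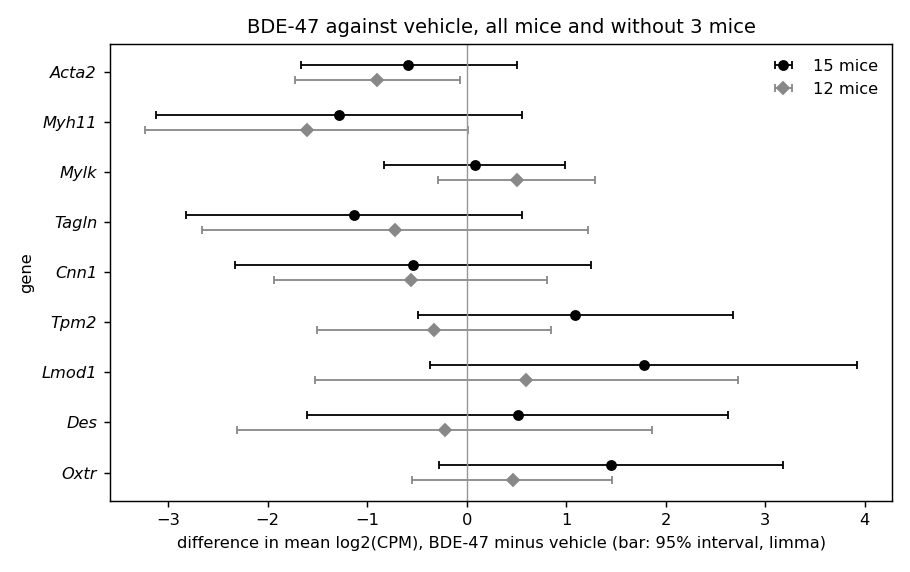
Difference in mean log2(CPM), BDE-47 minus vehicle, on the x axis for the 9 genes tested (y axis), with limma 95% intervals as bars, for 15 mice (black circles) and for the 12 mice without the 3 libraries that stood apart (grey diamonds). Every interval of the 15 mice holds 0, and of the 12 mice only that of Acta2 does not.

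**Figure D3:**
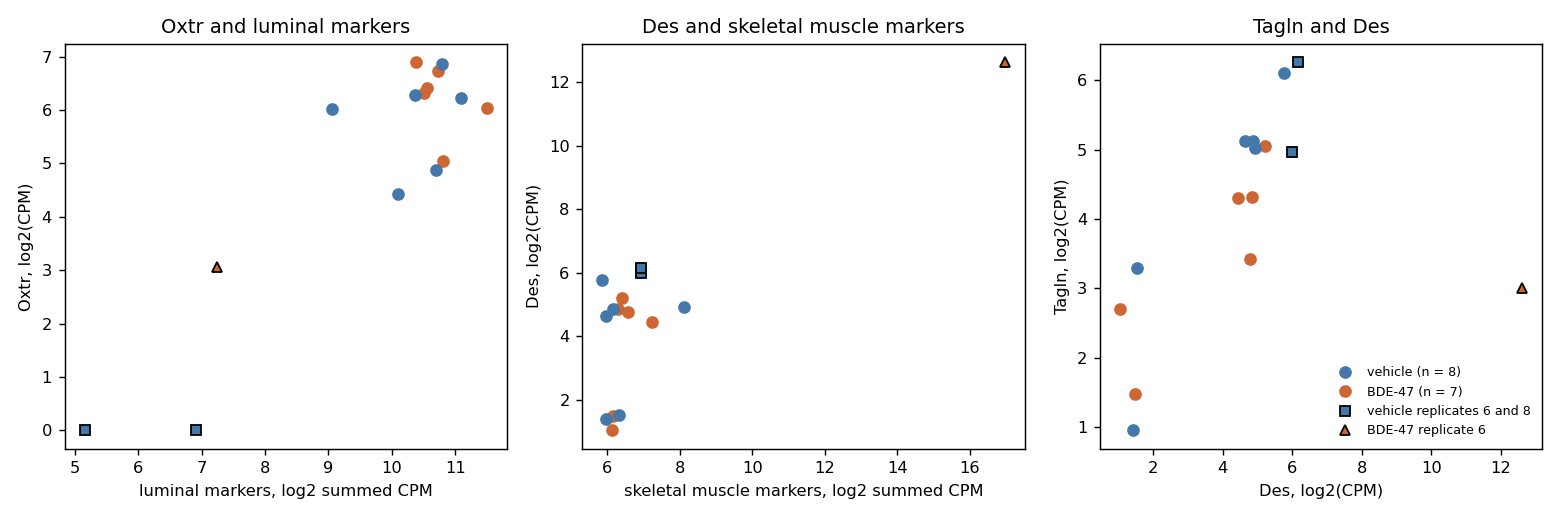
Each point is 1 mouse, vehicle in blue and BDE-47 in orange, with vehicle replicates 6 and 8 as squares and BDE-47 replicate 6 as a triangle. The panels plot Oxtr against the summed luminal markers, Des against the summed skeletal muscle markers and Tagln against Des, all on log2 scales. The squares and the triangle are the 3 lowest points for Oxtr, and the triangle lies alone at the right of both Des panels (Des 12.62, skeletal markers 16.96).

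Covariation between the contractile genes across mice was described pair by pair. Over the 36 pairs of the 9 genes Pearson's r in the 12 mice had a median of 0.15 and ran from -0.55 to 0.87, with 28 pairs above 0, and 1 pair passed Benjamini-Hochberg adjustment. Over all 15 mice the median was 0.13 with 21 of 36 pairs above 0. The pair that passed, which had the highest r in the 12 mice and was named after its value was seen, was Tagln and Des (adjusted p = 0.00468, permutation test over 12 mice). Its r was 0.40 over all 15 mice. The 12 mice fell into separate clusters along Des and not along Tagln. Where Des was at 1.04 to 1.52 (2 vehicle and 2 BDE-47 mice), Tagln was at 0.95 to 3.30, and where Des was at 4.44 to 5.77 (4 and 4 mice), Tagln was at 3.43 to 6.10. Within the latter 8 mice r was 0.69 (exact permutation p = 0.0617, two-sided) and Spearman's rho 0.52 (exact permutation p = 0.197, two-sided). In these 8 mice r was 0.27 without the 2 mice farthest from the median of Des. A split by Des narrows its range and can lower r by itself. These values therefore cannot tell whether the relation rests on the separate clusters of Des. Over the 12 mice Spearman's rho was 0.84, and r was 0.92 in the 6 vehicle and 0.86 in the 6 BDE-47 mice. The low Des mice were not the low Acta2 mice: of the 4, only BDE-47 replicate 4 had Acta2 under 100 CPM.

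Of 45 relations between the 9 genes and the summed levels of 5 marker lists in the 12 mice, 0 passed Benjamini-Hochberg adjustment (lowest adjusted p = 0.589, permutation test). The luminal and adipocyte lists were not planned for these relations. The lowest unadjusted permutation p was 0.0147, for Tpm2 with the myoepithelial and basal keratin sum (r -0.68, Spearman's rho -0.49). With that sum r in the 12 mice was below 0 for each of the 9 genes but Oxtr (0.04). These relations had been planned over all 15 mice. There r with that sum was below 0 only for Des (-0.58), Tagln (-0.37) and Tpm2 (-0.24). For the others it ran from 0.01 (Mylk) to 0.87 (Oxtr). Pericyte and vascular smooth muscle markers, such as Rgs5, were at 7.34 to 9.06 in vehicle and 7.66 to 8.60 in BDE-47 mice (difference 0.18, exact permutation p = 0.445, two-sided). Myoepithelial and basal keratin markers were at 3.57 to 7.78 and 5.33 to 8.30 (difference 0.85, exact permutation p = 0.236, two-sided), and 0.46 apart in the 12 mice. Some markers of both cell types that could carry the 10 genes were thus above the floor in each group. In single mice 3 to 9 of the 10 myoepithelial and basal keratin markers and 3 to 8 of the 8 pericyte and vascular markers were above it. Krt5 and Krt14, the keratins of the basal layer, were above the floor in all 15 mice. Trp63 of the same list was above it in 5 of 8 vehicle and 4 of 7 BDE-47 mice, and Lama3 in 1 and 3. The gene patterns most like the mean z-score of the 9 genes over 15 mice, by Pearson's r as a description, were Mgp (0.87), Tek (0.84), Htra3 (0.83), Scaper (0.83), Gpr153 (0.83), Dynlt3 (0.81), Smad7 (0.80), Acbd5 (0.79), Sparcl1 (0.79) and Mrs2 (0.78). Of these, Mgp, Htra3, Dynlt3 and Sparcl1 were above the floor in all 15 mice, and the 6 others were above it in 7 to 10.

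Other genes of the contractile apparatus were also split in direction. Of 37 such genes 36 were tested, 21 higher and 15 lower in BDE-47 mice with a median of 0.22, and 0 passed limma's adjusted p, while 2 higher and 1 lower had an unadjusted p under 0.05, a share to read beside the 1.93% and 2.72% of all genes. In the 12 mice the balance was reversed, with 15 higher and 21 lower and a median of -0.09, against -0.00044 for all genes tested. Smtn, smoothelin, a protein of contractile smooth muscle, ran from 0 through 3.74 to 5.23 in vehicle and from 2.81 through 5.06 to 5.61 in BDE-47 mice. Its difference was 2.07 ± 0.96 (SE, limma adjusted p = 0.982, exact permutation p = 0.0490, two-sided), with 3 vehicle mice at 0, and it was 1.71 in the 12 mice (limma adjusted p = 0.968). Pdlim3, an actinin-binding protein of muscle, differed by 2.46 ± 1.04 (SE, limma adjusted p = 0.982, exact permutation p = 0.0499, two-sided) and by 1.09 in the 12 mice, and it was highest in BDE-47 replicate 6 at 8.30. Ppp1r12a, the myosin phosphatase subunit that lets smooth muscle relax, was at 5.51 to 7.36 in vehicle and 4.04 to 7.36 in BDE-47 mice, a difference of -1.03 ± 0.49 (SE, limma adjusted p = 0.982, exact permutation p = 0.0387, two-sided). BDE-47 replicate 6 was its lowest mouse, and in the 12 mice the difference was -0.59 (limma adjusted p = 0.968). The groups overlapped for these 3 genes. Among the 12 mice the gene with an unadjusted p under 0.05 was another, the actin crosslinker Flna, at 5.59 to 8.14 in vehicle and 7.32 to 7.97 in BDE-47 mice. The light chain Myl9, which Mylk phosphorylates, was listed at 0 in vehicle replicate 8 and BDE-47 replicate 6, differed by 1.12 ± 0.98 (SE, limma adjusted p = 0.982) and was 0.69 apart in the 12 mice.

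Of 30 regulators and receptors, 13 had enough mice above the floor to be tested, 7 higher and 6 lower in BDE-47 mice, and 0 passed limma's adjusted p. Oxytocin signals through Oxtr to the G proteins Gnaq and Gna11, which activate phospholipase C beta (Plcb1, Plcb4) and so open the calcium channel Itpr1. Gna11 ran from 0 through 5.14 to 6.48 in vehicle and from 5.65 through 6.32 to 7.28 in BDE-47 mice, which lay close together (difference 1.99 ± 0.73 SE, limma adjusted p = 0.982, exact permutation p = 0.0190, two-sided). Its close relative Gnaq ran from 0.69 through 5.72 to 6.80 in vehicle and from 2.22 through 3.85 to 5.59 in BDE-47 mice (difference -1.49 ± 0.79 SE, limma adjusted p = 0.982, exact permutation p = 0.116, two-sided). Among the 12 mice the differences were 1.51 for Gna11 and -1.88 for Gnaq (limma adjusted p = 0.968 for Gnaq), in opposite directions as in all 15 mice. Plcb4 was at 2.17 through 4.88 to 6.19 in vehicle mice and at 0 through 2.60 to 4.41 in BDE-47 mice, with 2 BDE-47 mice at 0. The groups overlapped and the difference was -2.54 ± 0.94 (SE, limma adjusted p = 0.982, exact permutation p = 0.0143, two-sided), and -2.10 in the 12 mice. Plcb1 differed by 0.85 ± 1.18 and Itpr1 by -1.35 ± 0.80 (SE, limma adjusted p = 0.993 and 0.982). The signalling genes below Oxtr thus differed in both directions, and none passed adjustment.

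**Figure D4:**
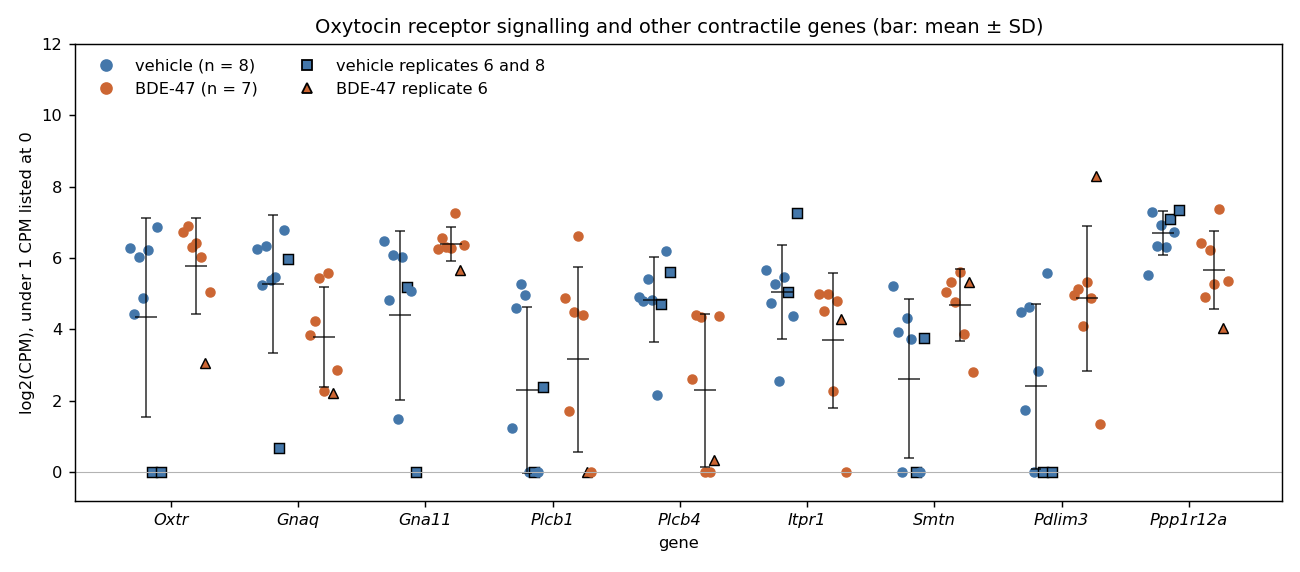
Level in log2(CPM) on the y axis of Oxtr, 5 genes that act after it (Gnaq, Gna11, Plcb1, Plcb4, Itpr1) and 3 other contractile genes, in each vehicle mouse (blue, n = 8) and BDE-47 mouse (orange, n = 7), with mean ± SD in black, vehicle replicates 6 and 8 as squares and BDE-47 replicate 6 as a triangle. Gna11 lay between 5.65 and 7.28 in BDE-47 mice and reached down to 0 in vehicle mice, Plcb4 reached 0 in BDE-47 mice, and the groups overlapped for all 9 genes.

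Srf itself was at 5.27 ± 1.20 (SD, n = 8) in vehicle and 5.51 ± 0.69 (SD, n = 7) in BDE-47 mice, and its actin-regulated partners Mrtfa and Mrtfb differed by -1.03 ± 0.84 and 0.58 ± 1.09 (SE, limma adjusted p = 0.982 and 0.994). Myocd, the partner of Srf particular to heart and smooth muscle, was listed at 0 in all 15 mice, as were the hormone gene Oxt, the receptors Adra1d and Chrm2 and the channel subunit Kcnmb1. Promoter sequence of RefSeq (GRCm38.p6, 250 bases before to 50 after the start) was found for 7 of the 10 genes and not for Myh11, Tagln and Actg2. The CArG box (CC, then 6 bases that are A or T, then GG, a pattern that is its own reverse complement, so both strands were searched) was in 0 of the 7 and in 1.63% of 32851 promoters. With 1 G or C allowed among the 6 bases, a CArG-like element was in 1 of the 7, Acta2, and a CArG box or CArG-like element in 9.98% of all promoters. Acta2 held 2 such elements and 0.822% of all promoters held 2 or more. Both are shown because Acta2 was the only one of the 7 with such an element, with the element in capitals on the minus strand of chromosome 19, at 34255448 to 34255457 (84 bases before the start) and at 34255398 to 34255407 (34 bases before the start). RefSeq gives the gene the span 34240336 to 34255585, so both lie before the start used by the promoter table and within the span of the gene.
Acta2 distal: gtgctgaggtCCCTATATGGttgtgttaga
Acta2 proximal: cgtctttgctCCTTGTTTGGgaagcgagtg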

How the data were processed

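Bulk RNA of 15 mice was sequenced with QuantSeq 3′ FWD. The authors mapped reads with STAR 2.5.3a to GRCm38, per the submitters' processing notes, and the deposited values are log2(CPM) with genes under 1 CPM set to 0. Whether each label is a separate animal was taken from the study. Depth was recovered from the spacing of low CPM values. Of 52636 entries per mouse, 110 repeated a gene name, and the entry with the highest mean was kept.

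The 9511 genes that reached 1 CPM in 7 or more mice were tested with limma 3.58.1 (trend) in R 4.3.3 with Benjamini-Hochberg adjustment over all of them, and with exact permutation of 6435 splits (smallest p 0.000155). Other steps used Python 3.11.15, numpy 2.4.6, scipy 1.17.1, pandas 2.3.3 and matplotlib 3.10.9. The limma fit and the exact permutation test of group differences were tried on simulated data, and the other steps were not. Comparisons had been designed for CPM, and the values, already log2, were used as given. Alternatives were a pseudocount of 1 or 0.1, other filters, a block for the replicate number, size factors by median of ratios, the ratio of mean CPM and each mouse left out. The 10 genes and the lists were chosen with earlier results of these data known. Named genes are the 10, other contractile genes with an unadjusted p under 0.05, markers, the 10 most alike genes, and Myl9, Gnaq, Plcb1, Itpr1, Srf, Mrtfa and Mrtfb, chosen after their values were seen.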

Additional observations from a re-analysis of the deposited data

Results flagged for a closer look

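Dixon's criterion was applied to 36 groups of values (each gene or marker sum in each treatment group), and in 13 of them 1 mouse lay far from the others. Chance gives about 1 in 20 groups. In BDE-47 replicate 6, Des was at 12.62 (nearest other mouse 5.20) and Tpm2 at 12.70 (6.71) on the log2(CPM) scale, while Mylk was at 5.27 (6.81) and Cnn1 at 0 (3.77). In the same mouse the log2 summed CPM of skeletal muscle markers was 16.96 (7.24), and those of myoepithelial and basal keratin markers 5.33 (7.44), luminal markers 7.24 (10.38), endothelial markers 6.26 (7.41) and adipocyte markers 11.95 (13.21) were low. Cnn1 was at 0 in vehicle replicate 6 (nearest 4.05), and Lmod1 was at 0 in BDE-47 replicate 2 (3.75). Vehicle replicate 1 stood above its group in skeletal muscle markers, at 8.11 (6.93), and in epidermal keratinocyte markers, at 5.75 (4.88).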

How the results depend on the processing

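Of 198 recomputed differences of the 9 genes, 187 were counted as the same, by direction and side of the 0.05 threshold. The main exact permutation p was 0.134 or more for each gene, so this count means only that direction held and p stayed above the threshold. It does not measure size: Oxtr at 0.0013 in the 13 mice (main 1.45) and Tpm2 at 0.07 without BDE-47 replicate 6 (main 1.09) counted as the same. The ratio of mean CPM had no test and was counted as the same if within the larger group SD of the main difference. Genes called by limma numbered 0 throughout except for 2 in the 12 mice, and without any 1 mouse the count stayed at 0. Contractile genes with an unadjusted limma p under 0.05 numbered 0, with 0 to 1 when 1 mouse was left out, 2 in the 13 mice without vehicle replicates 6 and 8 (Acta2, Myh11) and 1 in the 12 mice. Genes past 2-fold numbered 5, with 3 to 5 when 1 mouse was left out, 2 with at least 1 CPM required in all 15 mice (fewer genes pass) and 1 in the 12 mice. Leaving out 1 mouse took the Cnn1 difference from -1.16 to 0.11, Mylk from -0.20 to 0.38 (also -0.02 and -0.06), Des from -0.78 to 1.15 and Tpm2 from 0.07 to 1.45, with Cnn1 and Des reversed without BDE-47 replicate 6 and Mylk without vehicle replicate 7 or BDE-47 replicate 3 or 5. In the 12 mice Des (-0.22) and Tpm2 (-0.33) were also reversed. The log2 ratio of mean CPM gave 4.72 for Des, set by BDE-47 replicate 6.

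With the replicate number as a block, which leaves out vehicle replicate 8, 3 genes were past 2-fold (Myh11, Lmod1, Tpm2). A block of complete pairs cannot change a difference of means, so the count in those 14 mice without it was the same (3). Myh11 was at -1.43 either way. Its two-sided p was 0.0312 in an exact test that flips the sign of each pair's difference. By exact permutation of the same 14 mice without pairs it was 0.228. Correlations of deviations between mice of the same number were -0.018 to 0.053, with 0 of 7 over 0.1, so the pairing is only one of numbers. The floor of 1 CPM, 10.06 to 19.58 reads, limits what can be said of genes listed at 0.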

Other observations

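Skeletal muscle genes were not confined to BDE-47 replicate 6. Acta1, the skeletal actin, was above the floor in all 14 other mice at 19.4 to 71.5 CPM, which is 0.0568% to 0.210% of its 34090.4 CPM in that mouse. Tnnc2, a troponin of fast muscle, was at 8.63 to 43.6 CPM in the other mice (0.0373% to 0.188%), and Myh4, a fast myosin, at 6.44 to 16.6 CPM (0.0446% to 0.115%). Des and Tpm2 in the other mice were at 0.0326% to 1.13% and 0.168% to 3.81% of their level in that mouse. Their medians, 0.446% and 0.693%, were above those of Acta1 (0.0903%), Tnnc2 (0.0461%) and Myh4 (0.0557%). The lowest Des share was under the lowest of Acta1, Tnnc2 and Myh4. Acta2 was higher in each of the other mice than in that mouse, at 107% to 1678%. The source of the low skeletal values was not tested.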
